A study of Mus musculus with 24 samples.

Results

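COX2 and COX3 were described cytosine by cytosine in 24 bisulfite-treated libraries of mouse mitochondrial DNA (mtDNA). All listed cytosines of both strands within chrM:7013-7696 (COX2) or chrM:8608-9390 (COX3) of build mm10 (GRCm38) were taken, whatever their values. These were 569 of the 5829 listed cytosines, namely 173 L-strand and 91 H-strand cytosines of COX2 and 197 and 108 of COX3. RefSeq gives COX2 the same interval and starts COX3 at chrM:8607, where the added base is an adenine, so that every cytosine of both genes was included. COX2 is 684 nt long and holds 16 CpG dinucleotides, and COX3 is 784 nt long and holds 14. Both lie on the reference (+) strand, which is the L strand, as uninterrupted coding sequence without introns.

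COX2 and COX3 encode core subunits of cytochrome c oxidase (complex IV), the last enzyme of the respiratory chain. COX2 carries the copper centre that takes electrons from cytochrome c, COX3 supports the catalytic core, and COX1, the remaining subunit encoded by mtDNA, holds the haem groups where oxygen is reduced. The L strand carries the sense sequence of these genes and is poor in guanine, whereas the H strand is the template for their transcripts and is rich in guanine. Bisulfite turns unmodified cytosine into uracil and leaves 5-methylcytosine (5mC) as it is, so the percent of reads in which a cytosine remains, its unconversion rate, is an upper reading of 5mC that also includes failed conversion.

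The study asked whether mtDNA contains 5mC and compared native mtDNA with a PCR-generated mtDNA that holds none. Native mtDNA came from nuclease-treated mitochondria of E14 embryonic stem cells (ESCs), a wild-type mouse line cultured on irradiated feeder cells in 2i-LIF medium, and of brain and liver of mice labelled C57BL/6J, whose age, sex and number per preparation are not given in the sources used here. Native mtDNA was linearised with BglII before treatment, and synthetic mtDNA, 1 preparation amplified from native mtDNA, imitated the linear form. The 3 ESC, 2 brain, 2 liver and 1 synthetic preparations gave 10, 5, 5 and 4 libraries with the PBAT method (post-bisulfite adaptor tagging), where random priming adds the adaptors once conversion is over. A library is named by series (E, B, L or S), preparation and minutes of treatment, so that E1_60 is ESC preparation 1 treated for 60 min. Preparations E1, E2, B1, L1 and S1 were treated for 5, 15, 40 and 60 min, E3 for 60 and 90 min, and B2 and L2 for 60 min only.

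The values of both genes turned on short stretches, which are shown as they stand on the L strand (RefSeq sequence of GRCm38, 5′ to 3′). Genes were divided into windows of 60 nt from their start. Capitals mark cytosines whose mean L-strand rate was 10% or more over the 60 min libraries that covered them with 10 reads or more. The first stretch is the COX2 window with the highest rates. The next pair of COX2 windows, picked after the values were seen, shows a neighbour and a well converted window. In the neighbour no L-strand site had 10 reads or more in any 60 min library. The last 2 are the COX3 windows with the highest and the lowest rates.
COX2 nt 121 to 180, chrM:7133-7192: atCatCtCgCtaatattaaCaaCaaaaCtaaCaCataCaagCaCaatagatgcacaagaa
COX2 nt 181 to 240, chrM:7193-7252: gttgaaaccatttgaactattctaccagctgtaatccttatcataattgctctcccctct
COX2 nt 361 to 420, chrM:7373-7432: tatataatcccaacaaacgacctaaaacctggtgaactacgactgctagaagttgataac
COX3 nt 661 to 720, chrM:9267-9326: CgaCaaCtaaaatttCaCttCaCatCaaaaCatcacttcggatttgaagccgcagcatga
COX3 nt 721 to 784, chrM:9327-9390: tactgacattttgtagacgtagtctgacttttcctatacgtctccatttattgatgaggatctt
The COX2 window with 12 marked cytosines contains 5 guanines in 60 nt, and the well converted COX2 window contains 9. The COX3 window with 9 marked cytosines contains 8 guanines, all but 1 of them after the last marked cytosine, and the lowest COX3 window contains 11. Guanine number did not order all windows. COX3 nt 361 to 420, with 4 guanines, had an L-strand mean of 0.856% over 7 libraries of 60 min. COX3 nt 541 to 600, with 8, had a mean of 0.352% over 8.

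Rates were used where a cytosine had coverage of 10 reads or more, and the value of a gene and strand is the mean over those sites. Libraries held 257028 to 2260572 cytosine calls (median 986984). B2_60 stood apart through its low coverage, with a median of 10 reads per cytosine over mtDNA, and differences of gene means that moved by over 1.5 times or changed their call without it are also given without it. The deposited rates include reads that were unconverted throughout, which the study left out of its own rates. Over the L strand of ND6, 99.2 to 99.7% of calls were unconverted in the 60 min libraries, which reads with under 90% unconverted cytosines each could not give. All L-strand means and ranks below therefore count such reads. At the median coverage of the used sites, a floor of 3 unconverted reads amounts to 0.39% (S1_60) to 3.26% (B2_60) on the COX2 H strand at 60 min and to 8.33% (L1_60) to 17.1% (B2_60) on its L strand. Intervals and these floors cover counting error only, since calls of the same read are not independent.

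How much of each gene could be read after the treatment differed between the genes and strands. On the H strand, all 91 COX2 sites and 105 to 108 of the 108 COX3 sites had coverage of 10 or more in every library of 5 to 60 min. On the L strand of COX2, 146 (S1_05) to 170 (B1_05) of the 173 sites were usable after 5 min. After 60 min the number was 45 in E1_60, 31 in E2_60, 38 in E3_60, 49 in B1_60, 8 in B2_60, 36 in L1_60, 35 in L2_60 and 112 in S1_60. Thus a minority of the COX2 L strand was read in every native 60 min library, and 61 of its 173 cytosines were used in none of the 8 libraries. In 57 more, the only usable 60 min library was synthetic mtDNA. COX3 kept 163 to 180 of its 197 L-strand sites at 60 min in the libraries other than B2_60, which kept 81.

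**Figure D1:**
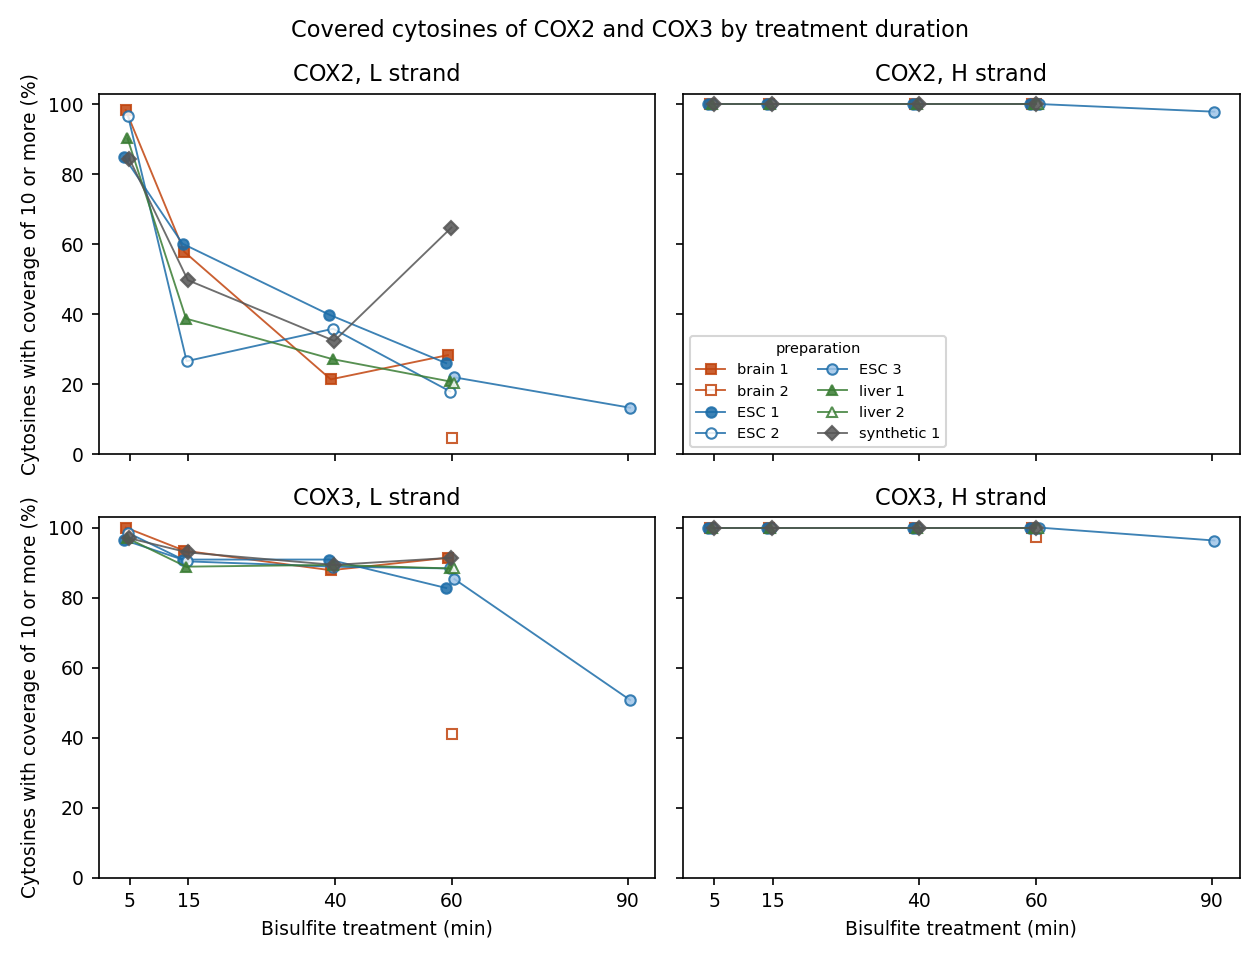
Percent of the listed cytosines with coverage of 10 or more (y axis) by minutes of bisulfite treatment (x axis), each gene and strand in a panel and each preparation a line or point; small horizontal shifts separate preparations. COX2 L-strand sites decline from at least 84.4% at 5 min to at most 28.3% in native mtDNA at 60 min, while COX3 stays at 82.7% or more except in B2_60 and E3_90.

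Calls over the COX2 L strand after 60 min were 17.0% of those after 5 min in preparation E1, 9.89% in E2, 18.5% in B1, 16.2% in L1 and 61.4% in S1. Over the L strand outside both genes the share left was 33.2% (E2) to 51.1% (L1) in native preparations and 122% in synthetic mtDNA. For COX3 it was 67.8% (L1) to 126% (B1) and 295%, so that in each of the 5 preparations COX2 kept the smaller and COX3 the larger share of calls than the remaining L strand. Libraries were pooled after adjustment to a set concentration, so these shares are relative and no test was applied. On average, the COX2 sites lost by 60 min had converted less well after 5 min. Their mean 5 min rate was 61.7% (L1) to 67.4% (E1) in native mtDNA, against 42.7% (E1) to 50.9% (E2) for the sites that stayed usable. Single windows departed from this. COX2 nt 121 to 180, at 88.9 to 93.2% in native mtDNA after 5 min, kept usable sites in every 60 min library. By contrast, nt 541 to 600, at 27.6 to 42.0%, had no usable native site after 60 min. Median L-strand coverage after 5 min was already 7.5 to 15 reads there, against 123 to 235.5 reads in nt 121 to 180. In COX3 the lost sites averaged 75.6% (E1) to 94.5% (B1) and the kept sites 40.9% (E1) to 45.1% (E2). A 60 min mean of either gene therefore describes a selected set of its L-strand cytosines.

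After 5 min, L-strand means of COX2 were 60.2% in E1, 62.5% in E2, 58.7% in B1, 58.7% in L1 and 66.0% in S1. Those of COX3 were lower in every library, 46.0%, 49.8%, 46.6%, 48.2% and 51.8% in the same order. H-strand means of the 2 genes lay close together, at 33.0 to 35.1% (COX2) and 32.5 to 34.3% (COX3) in native mtDNA and 30.1 and 30.7% in synthetic mtDNA. By 15 min the H-strand means were 3.52 to 3.88% for COX2 and 3.50 to 3.92% for COX3 in E2, B1 and L1, with S1 at 3.61 and 3.42%. E1_15 stood apart at 11.3% and 11.2%, and the H strand outside the 2 genes was at 10.5% in that library against 3.40 to 3.67% in the other native ones. By 40 min the H-strand means were 0.429 to 0.593% for COX2 and 0.436 to 0.797% for COX3 in native mtDNA. COX3 L-strand means fell to 2.75 to 3.61%, and those of COX2 remained at 9.87 to 22.3%.

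**Figure D2:**
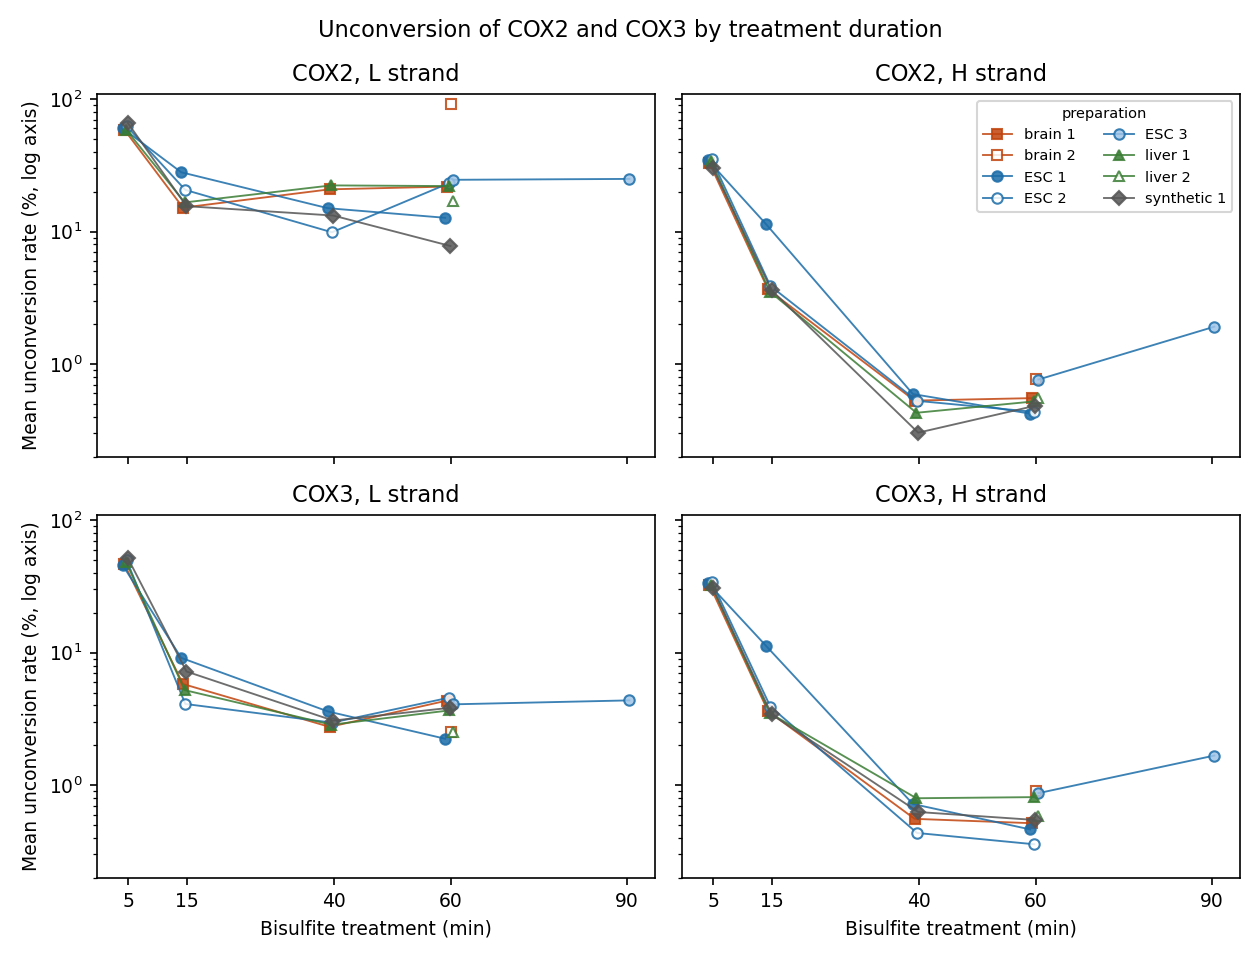
Mean unconversion rate in percent on a log axis (y) by minutes of bisulfite treatment (x), each gene and strand in a panel and each preparation a line or point, without error bars since each point is 1 library; small horizontal shifts separate preparations. At 40 min the H-strand means of both genes and the COX3 L-strand means are at most 3.61%, whereas from 40 min on the COX2 L strand lies between 7.77% (S1_60) and 24.9% (E3_90) except for B2_60 at 91.8%.

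From 40 to 60 min no mean of either gene changed beyond the spread between preparations. In the 5 preparations treated for both, the change was 1.27 percentage points for the COX2 L strand (higher in 2 of 5), 0.00681 for its H strand (3 of 5), 0.683 for the COX3 L strand (4 of 5) and -0.0883 for its H strand (1 of 5). Exact two-sided sign-flip permutation p-values were 0.875, 0.812, 0.25 and 0.125, where 5 pairs cannot give less than 0.0625. After 90 min, in 1 library with no replicate, the sites shared by E3_60 and E3_90 averaged 1.91% on the COX2 H strand against 0.738% after 60 min. For the COX3 H strand the averages were 1.67% and 0.822%, and for the H strand outside the genes 1.34% and 0.621%. The L-strand averages were 24.9% and 27.8% for COX2 (23 sites) and 4.37% and 4.02% for COX3 (100 sites).

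After 60 min the L strand of COX2 averaged 12.7% in E1, 23.2% in E2, 24.6% in E3, 21.8% in B1, 91.8% in B2, 22.0% in L1 and 17.0% in L2, and 7.77% in synthetic mtDNA. B2 is far above the rest, and the other native values overlap among ESCs, brain and liver. Its mean rests on 8 sites, all within the high stretch of nt 121 to 180. At these 8 sites 91.8% of B2_60 calls were unconverted (95% Wilson interval, 85.9 to 95.4%), as were 93.0% of B1_60 calls (90.9 to 94.7%) and 73.1% of S1_60 calls (69.9 to 76.1%). The 8 neighbouring sites share reads, so these intervals are too narrow to compare the libraries. COX3 averaged 2.24%, 4.58%, 4.08%, 4.35%, 2.50%, 3.66% and 2.53% on the L strand in the same native order and 3.84% in synthetic mtDNA, which lay inside the native range. The H-strand means of COX2 were 0.422%, 0.435%, 0.764%, 0.553%, 0.767%, 0.522% and 0.557%, with synthetic mtDNA at 0.485%. Those of COX3 were 0.464%, 0.358%, 0.871%, 0.517%, 0.906%, 0.813% and 0.589%, with synthetic mtDNA at 0.546%. On this strand E3 and B2 were high in both genes, and synthetic mtDNA again lay among the native libraries.

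The comparison with synthetic mtDNA asks whether native mtDNA holds unconverted cytosines beyond those of a DNA without 5mC. For the H strand, native mtDNA averaged 0.574% ± 0.141 (SD, n = 7) in COX2 and 0.645% ± 0.217 in COX3, which is 0.0896 and 0.0991 percentage points above synthetic mtDNA (5 of 7 and 4 of 7 preparations higher). Neither difference was larger than the spread between preparations (exact two-sided permutation test, adjusted p = 0.815 and 0.875). On the L strand COX3 averaged 3.42% ± 0.977 (SD, n = 7) and was 0.423 percentage points lower than synthetic mtDNA (-0.423, 3 of 7 preparations higher, p = 0.875, exact permutation test). COX2 averaged 30.4% ± 27.4 (SD, n = 7), 22.7 percentage points above synthetic mtDNA and higher in 7 of 7 preparations, and this too did not pass (exact permutation test, p = 0.25). Preparations in a ratio of 7 to 1 cannot give an exact p-value below 0.125. Without B2 the COX2 L-strand difference was 12.4 percentage points, that of the COX3 L strand -0.269, and those of the H strand 0.0575 (COX2) and 0.0557 (COX3).

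The COX2 L-strand sites behind these means were not the same. Synthetic mtDNA had 100 usable L-strand sites outside the stretch of nt 121 to 180, native libraries 38 or fewer. When this stretch was left out, a choice made after the values were seen, the COX2 L-strand mean was 0.270% in E1, 0.822% in E2, 0.737% in E3, 3.32% in B1, 1.24% in L1 and 1.07% in L2, with no usable site in B2, against 1.56% in S1. The native mean was then 0.321 percentage points lower than that of synthetic mtDNA (-0.321, exact permutation test, p = 0.714). At sites usable in both the native and the synthetic library, COX2 L-strand differences were -1.48 (E1, 45 sites), 2.97 (E2, 31), 5.56 (E3, 38), 6.48 (B1, 49), 18.7 (B2, 8), 1.01 (L1, 36) and -1.21 (L2, 35) percentage points. In COX3 the corresponding differences ran from -1.91 (E1) to 0.656 (E2), 3 of 7 being negative.

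ESC mtDNA was compared with the mtDNA of both tissues together, as 3 against 4 preparations. COX2 L-strand means were 20.1% ± 6.49 (SD, n = 3) in ESCs, 56.8% ± 49.5 (n = 2) in brain and 19.5% ± 3.54 (n = 2) in liver, and COX3 means were 3.63% ± 1.23, 3.43% ± 1.31 and 3.10% ± 0.802. H-strand means were 0.540% ± 0.194, 0.660% ± 0.152 and 0.540% ± 0.0249 for COX2 and 0.565% ± 0.271, 0.711% ± 0.275 and 0.701% ± 0.158 for COX3. ESC minus tissue differences were -18.0 (COX2 L), -0.0594 (COX2 H), 0.372 (COX3 L) and -0.142 (COX3 H) percentage points. None passed an exact two-sided permutation test (p = 0.686, 0.6, 0.714 and 0.457, with 0.0286 the smallest possible). Without B2 these differences were -0.136, -0.00366, 0.118 and -0.075 percentage points in the same order. With a coverage minimum of 20 or 30, which leaves B2 without a usable COX2 L-strand site, the COX2 L-strand difference turned to 5.53 and 8.99.

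The L strand lay above the H strand in both genes in each of the 8 libraries of 60 min. The difference was 27.0 percentage points in COX2 and 2.84 in COX3 (exact two-sided sign-flip permutation test over preparations, p = 0.00781 for each, the smallest possible, and 0.0335 after Benjamini-Hochberg adjustment over 30 tests of gene means). COX2 also exceeded COX3 on the L strand in 8 of 8 libraries, by 24.1 percentage points, and it exceeded COX1, at 2.58%, in 8 of 8 (adjusted p = 0.0335 for each, exact permutation test). Without B2 these differences were 17.9 between the COX2 strands, 14.8 to COX3 and 16.1 to COX1. Sites of 50% or more were also left out, in each library by its own rates, which removes high values by design. COX2 minus COX3 on the L strand was then -1.31 percentage points, the difference between the COX2 strands 1.52 and COX2 minus COX1 0.540. None of these passed. The difference between the COX3 strands was 2.63 percentage points in that setting. Its p stayed at 0.00781, the smallest possible, and it missed the threshold only after adjustment (0.0586, exact permutation test). The L strands of COX3 and COX1 differed by 0.890 percentage points, with COX3 higher in 6 of 8 libraries (exact permutation test, p = 0.148, adjusted 0.318). COX2 minus COX3 was -0.07 percentage points on the H strand (p = 0.125) and COX2 minus COX1 0.084 (p = 0.211), and COX3 was 0.154 higher than COX1 in 7 of 8 libraries (p = 0.0234, adjusted 0.0639, exact permutation tests), so no pair of H strands passed after adjustment. Without B2 COX3 minus COX1 was 1.30 on the L strand (adjusted p = 0.1) and 0.184 on the H strand (adjusted p = 0.0469), and COX2 minus COX1 was 0.124 on the H strand (adjusted p = 0.0781, exact permutation tests).

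Among the 15 rRNA and protein genes of mtDNA, COX3 ranked 14 and COX2 ranked 10 from the highest by L-strand mean over the 8 libraries of 60 min. COX3 (3.47%, range 2.24 to 4.58%) followed mt-Rnr1 (5.14%, 3.19 to 7.73%) and preceded COX1 (2.58%, 1.49 to 4.49%), and its range overlapped both neighbours. COX2 (27.6%, range 7.77 to 91.8%) stood between ND1 (28.9%, 22.8 to 32.2%) and ND3 (25.7%, 14.3 to 50.8%), also with overlap. Without B2 the COX2 mean was 18.4% and ranked 11, below ND3 at 22.2%, and COX3 kept rank 14. Against the mean of all L-strand cytosines outside both genes, 34.6%, COX3 was lower by 31.1 percentage points in each of 8 libraries (-31.1, adjusted p = 0.0335, exact permutation test). With sites of 50% or more left out, that difference was -1.29 percentage points and did not pass. COX2 minus that mean was -6.99 percentage points (higher in 1 of 8 libraries, adjusted p = 0.653, exact permutation test), and that 1 library was B2_60. Over sites usable in all 8 libraries, which in COX2 are the 8 of the high stretch, it was 39.2 percentage points above (adjusted p = 0.0283, exact permutation test). Without B2 the difference was -14.9 percentage points (exact permutation test, p = 0.0156, the smallest that 7 preparations allow). By H-strand mean COX3 ranked 4 (0.633%) and COX2 ranked 5 (0.563%), and neither difference from the remaining H strand passed (0.0455 and -0.0244 percentage points, p = 0.281 and 0.438, exact permutation tests).

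Over all 24 libraries the genes with the smallest mean absolute difference from COX2 on the L strand were ND3 (12.2 percentage points), ND1 (13.6) and ND4L (14.2), all subunits of complex I. The L strand of COX3 was nearest to those of mt-Rnr1 (3.25), mt-Rnr2 (3.99) and COX1 (4.08). For H-strand means COX2 and COX3 were each other's nearest gene, with a mean absolute difference of 0.271 percentage points.

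Along COX2 the L-strand rates after 60 min were not spread evenly. The window of nt 121 to 180 averaged 70.1% in E1, 87.5% in E2, 83.0% in E3, 85.7% in B1, 91.8% in B2, 63.6% in L1, 70.8% in L2 and 59.5% in S1, and was the sole COX2 window with 3 or more sites usable in all 8 libraries. These means rest on 8 to 12 sites per library, of which 8 were usable in all libraries. Averaged over only those 8 sites, the rates were 70.1%, 87.5%, 89.7%, 93.0%, 91.8%, 77.8% and 70.8% (native libraries in that order) and 73.1% in S1, so that synthetic mtDNA lay above E1 and L2. Rates were thus high here in native and synthetic mtDNA alike, and the site means lay between 80.6 and 83.3%. Further along, nt 361 to 420 had native means of 0 to 2.42% in the 6 libraries with usable sites and a synthetic mean of 2.54%. For nt 421 to 480 these were 0 to 4.62% and 0.588%. Windows from nt 181 to 300, which had rates of 87.4 to 99.0% after 5 min, had no usable L-strand site after 60 min in any library.

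COX3 reached lower peaks in 2 places. Between nt 106 and 133 (chrM:8712-8739), 8 L-strand cytosines had mean rates of 13.1 to 45.4% and rates of 17.4 to 55.3% in synthetic mtDNA. Between nt 654 and 691 (chrM:9260-9297), 12 cytosines averaged 10.4 to 23.8%, and 11.3 to 27.8% in synthetic mtDNA. The highest window, nt 661 to 720, averaged 7.08% in E1, 18.8% in E2, 15.1% in E3, 19.8% in B1, 9.63% in B2, 11.3% in L1, 3.90% in L2 and 12.7% in S1, which places synthetic mtDNA in the middle of the native range. In the adjoining last window, nt 721 to 784, all 8 libraries lay between 0 and 0.125%. The first 60 nt of COX3, at 94.2 to 97.1% in native mtDNA after 5 min, had no usable L-strand site after 60 min.

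**Figure D3:**
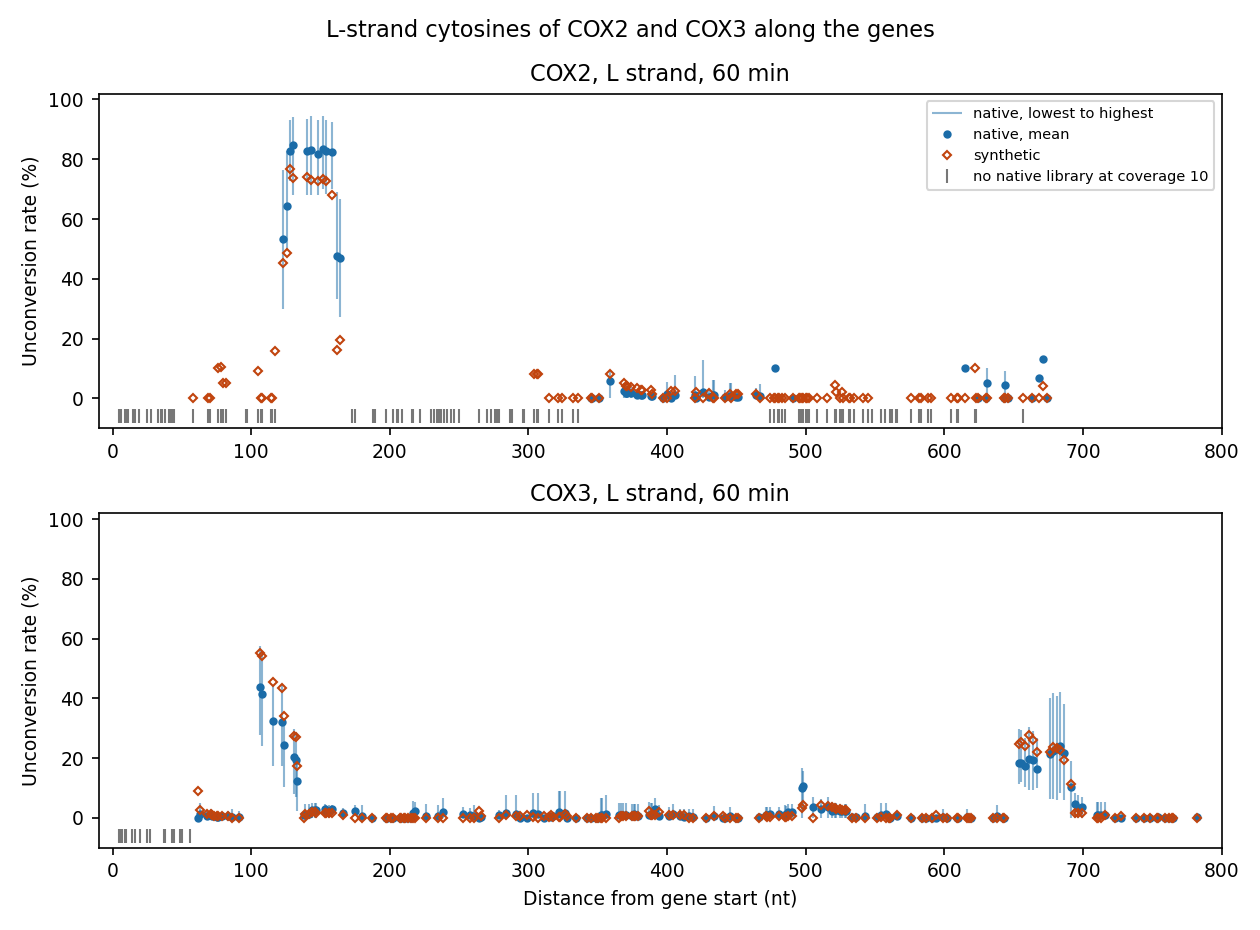
L-strand unconversion rate after 60 min in percent (y axis) by distance from the gene start in nt (x axis). Filled points are native means with lines from the lowest to the highest native library, open diamonds are synthetic mtDNA, and grey ticks below 0 are cytosines without a usable native library. COX2 shows 1 block of high rates within nt 121 to 180, and COX3 has lower blocks at nt 106 to 133 and nt 654 to 691, each present in synthetic mtDNA too. In COX2 nt 61 to 120, 3 sites have 10% or more and were usable in synthetic mtDNA alone.

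The 3 sites of each gene whose L-strand rates varied most, among sites usable in all 8 libraries, lay in these blocks. In COX2 the CA cytosine at nt 158 (chrM:7170, codon 53) was unconverted in 70.0% of reads in E1, 88.2% in E2, 89.5% in E3, 91.9% in B1, 92.3% in B2, 74.2% in L1, 70.6% in L2 and 68.2% in S1. Its SD over the 8 libraries was 10.7 percentage points at a coverage of 13 to 88 reads, and nt 143 and nt 154 followed with 10.6 and 10.2. E2, E3 and both brain libraries were high and E1, both liver libraries and S1 low at these sites. In COX3 the CA cytosine at nt 676 (chrM:9282, codon 226) had rates of 13.6%, 40.0%, 26.8%, 40.0%, 7.1%, 14.8% and 6.5% in the same native order and 22.0% in S1, with an SD of 13.4 percentage points. The sites at nt 678 and nt 683 had SDs of 13.0 and 12.6.

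Surrounding guanines differed between high and low L-strand sites. Cytosines were split by the guanines within 25 nt on either side at the median over all listed L-strand cytosines of mtDNA, which was 6. In COX3 the sites with 6 or fewer averaged 3.49% (B2) to 9.87% (B1) and those with more 0.164% (E1) to 1.79% (B2). The difference of 6.45 percentage points had the same sign in 8 of 8 libraries (exact two-sided sign-flip permutation test, p = 0.00781, adjusted 0.0335). In COX2 the sites with few guanines averaged 17.6% (S1) to 42.4% (E3) in the 7 libraries with both kinds of site, and those with many 0 (E3) to 3.50% (B1). That difference was 31.1 percentage points in 7 of 7 libraries (p = 0.0156, the smallest possible, adjusted 0.0521, exact permutation test). Once B2 was removed from all 30 tests the adjusted p was 0.0469. Leaving out sites of 50% or more reduced the difference to 2.68 percentage points, with means of 3.53% and 0.848%. Of the sites with many guanines, 1 of 66 in COX2 and 0 of 104 in COX3 had a mean of 10% or more, against 15 of 46 and 20 of 76 of those with few. These COX2 counts cover 112 sites, of which 57 were usable in S1_60 alone. Of the 15 COX2 sites with few guanines, 8 were usable in 5 or more libraries, and the 1 with many was usable in 1 library. The guanine count is shared by neighbouring cytosines, which are not independent, and its part in the rates was not tested.

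**Figure D4:**
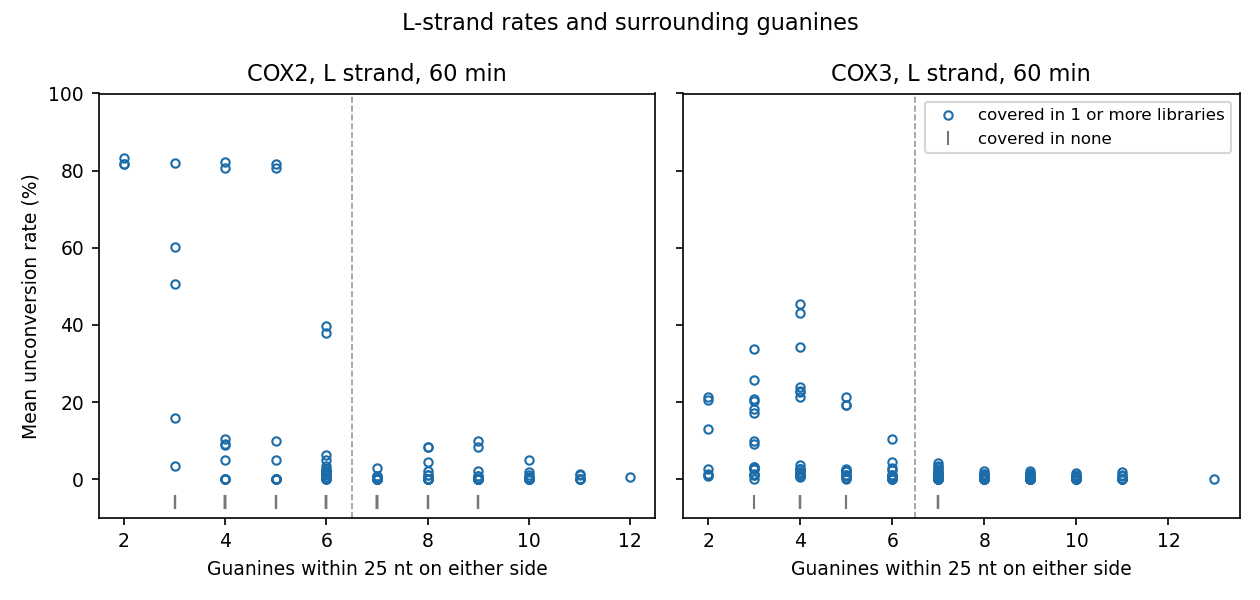
Mean L-strand unconversion rate of each cytosine after 60 min in percent (y axis) by the number of guanines within 25 nt on either side (x axis), for COX2 and COX3. The dashed line is the split at 6 guanines and grey ticks below 0 are cytosines without a usable library. Means above 10% lie left of the line in both genes. In COX2, 57 of the 112 means rest on S1_60 alone.

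No H-strand cytosine of COX2 exceeded 7.1% in a 60 min library, and none of COX3 exceeded 10%. The CpG cytosine at nt 245 of COX2 (chrM:7257, codon 82) had the highest COX2 mean, with 2.2% in E1, 2.0% in E2, 4.5% in E3, 3.7% in B1, 1.8% in B2, 3.3% in L1, 4.7% in L2 and 2.8% in S1 at coverages of 170 to 1484 reads. Synthetic mtDNA lay in the middle of these values, and the reads summed over native preparations gave 124 of 3553 unconverted against 42 of 1484 (Fisher's exact test, adjusted p = 1). The highest H-strand mean of COX3 was that of nt 742 (chrM:9348, codon 248, CT), with 3.9%, 10%, 0%, 9.9%, 0%, 9.1% and 1.4% in native mtDNA and 1.1% in S1. E2, B1 and L1 were high there and E3 and B2 at 0, so that no series stood apart, and 32 of 529 native reads against 2 of 182 were unconverted (Fisher's exact test, p = 0.00437, adjusted 0.223). As read on the H strand, 5′ to 3′ with the cytosine in capitals, both sites and 20 bases on either side are:
COX2 H strand, chrM:7237-7277: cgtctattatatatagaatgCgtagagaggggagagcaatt
COX3 H strand, chrM:9328-9368: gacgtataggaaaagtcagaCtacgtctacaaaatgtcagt
The next H-strand sites were nt 350 (2.45%) and nt 129 (2.09%) in COX2 and nt 19 (2.61%) and nt 88 (2.50%) in COX3. The COX2 site at nt 129 pairs with the L-strand cytosine of the same CpG, at nt 128, whose mean was 82.0%.

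On neither L strand did the CpG mean exceed that of other cytosines (CH, where H is A, C or T). In COX3 they averaged 2.07% and CH sites 3.59%, lower in 8 of 8 libraries (-1.52 percentage points, adjusted p = 0.0335, exact two-sided sign-flip permutation test). In COX2 they averaged 23.6% and CH sites 28.3% (-4.78, adjusted p = 0.0639, exact permutation test), on 1 to 10 usable CpG sites per library. COX2 H-strand CpG sites averaged 0.744% and CH sites 0.525%, higher in 7 of 8 libraries (0.219, p = 0.0156, adjusted 0.0521, exact permutation test). For these CpG sites synthetic mtDNA lay within the native range of 0.506 to 1.16%. For the COX3 H strand the difference was 0.0107 percentage points (p = 0.859, exact permutation test), and 0.115 without B2. The COX3 CpG cytosines of the H strand ran from 0.15 to 2.21% as site means, and all 16 and 14 H-strand CpG sites of the genes had means below 5%.

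Single cytosines were tested between native and synthetic mtDNA over all of mtDNA by Fisher's exact test on summed reads. 42 of 4129 tested cytosines passed after Benjamini-Hochberg adjustment (threshold 0.05), a background of 1.02%, with 1.77% of L-strand and 0.107% of H-strand sites called and 0.532% of L-strand sites called as higher in native mtDNA. No COX2 or COX3 site was among them, at 0 of 37 tested L-strand and 0 of 91 H-strand sites of COX2 and 0 of 175 and 0 of 108 of COX3. Unadjusted p-values under 0.05 were found at 8, 6, 6 and 3 of these sites. The matching share over mtDNA is not given here, so unadjusted counts are not read as a result about the genes. The lowest adjusted p was 0.105, at nt 158 of COX2, with 193 of 227 native and 60 of 88 synthetic reads unconverted on the L strand. With limma, fitted to logit-transformed rates of single preparations, where synthetic mtDNA is assumed to vary like native mtDNA, 0 of 2902 sites passed. In the same order of genes and strands, 0 of 8, 13 of 91, 3 of 81 and 4 of 105 sites had an unadjusted p under 0.05. With a coverage minimum of 30 reads, 4 L-strand sites of the high COX2 stretch passed Fisher's exact test, nt 130, nt 140, nt 143 and nt 158, each 15.8 to 19.4 percentage points higher in native mtDNA (adjusted p = 0.021 to 0.0445). Over mtDNA 41 of 3115 cytosines, 1.32%, passed at that minimum. The 4 COX2 sites are neighbours that share reads, so they are not independent calls. At nt 158, 87.6% of 177 native and 68.2% of 88 synthetic reads were unconverted. Without L1 or without L2, nt 158 passed alone (18.6 and 18.0 percentage points), and without B1 the H-strand cytosine at nt 58 of COX3 passed, with 12 of 1069 native and 0 of 982 synthetic reads unconverted. The share of all mtDNA cytosines that passed was 1.3% without L1, 1.28% without L2 and 1.29% without B1. Reads summed over preparations hide the spread between them.

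**Figure D5:**
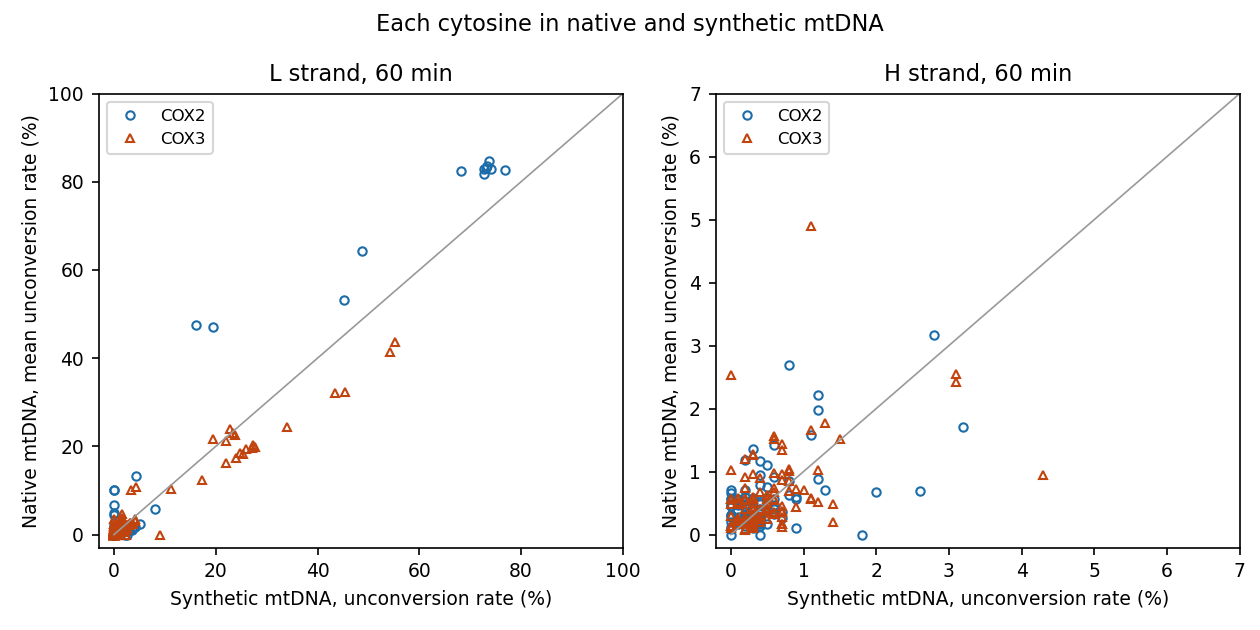
Mean unconversion rate over native libraries (y axis) against that of synthetic mtDNA (x axis) after 60 min, both in percent, for each cytosine usable in both, with the line of equality. On the L strand 16 of 55 COX2 sites lie more than 5 percentage points above the line and 0 more than 5 below it. Of 180 COX3 sites, 2 lie more than 5 above and 14 more than 5 below it. H-strand sites of both genes lie near the origin.

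Over the L-strand sites shared with synthetic mtDNA, rates within a native library were compared with those of S1_60. Pearson's r across sites was 0.958 or more for COX2 in the 6 native libraries other than B2_60 and 0.894 or more for COX3 in the same libraries. Spearman's rho, on which the few high sites weigh less, was 0.439 (B1) to 0.947 (L1) in COX2 and 0.505 (L2) to 0.714 (E2) in COX3 in these libraries. B2_60 had an r of -0.367 over 8 COX2 sites and 0.670 over 81 COX3 sites. H-strand values of r were 0.00219 to 0.495 in COX2 and 0.0957 to 0.415 in COX3. These are descriptions across neighbouring sites that share reads and base composition, not tests. Between ESCs and tissues, limma called 0 of 2902 cytosines (background 0%), and thus none of the 8 L-strand and 91 H-strand sites of COX2 and the 81 and 105 of COX3 that could be tested. Unadjusted p-values under 0.05 were found at 0, 1, 0 and 3 of them, again without a share over mtDNA beside them. Fisher's exact test also called 0.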

How the data were processed

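Per the labels and the study's methods, the authors sequenced PBAT libraries on a MiSeq, trimmed the first reads with Trim Galore and mapped them to mouse chrM (mm10) with Bismark in its PBAT mode, as the submitters' processing notes also list; versions are not given in the sources used here. For each cytosine the authors deposited the percent of reads in which it was unconverted, to 1 decimal, and the coverage, a count of reads, without normalisation. The study's rates were computed after reads with at least 90% unconverted cytosines had been left out. The deposited rates precede that step, and it was not repeated, since single reads were not analysed here. The study also used liver of ICR mice and does not say for which experiments; the labels give C57BL/6J for every liver and brain library.

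Samples were grouped by series, preparation and duration from the labels. Unconverted reads were taken as percent times coverage, rounded to a whole number. Sites with coverage of 10 or more were used, and the median coverage per cytosine was 10 to 162 reads per library. Preparations are separate by the labels, with 1 library each per duration. Gene means were compared by exact permutation and sign-flip tests with Benjamini-Hochberg adjustment over 30 tests. For single cytosines, Fisher's exact test (scipy 1.17.1) compared summed reads and limma 3.58.1 (R 4.3.3) compared empirical logits (offset 0.5), with adjustment over all tested sites of mtDNA and a threshold of 0.05. Both site tests were also run on simulated reads, drawn independently per site and without spread between preparations beyond counting. That run cannot show how the tests behave under such spread or with shared reads. Sequences and gene positions came from RefSeq (GRCm38).

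The members, lists, windows and tests were chosen with earlier results of these data known. Named windows were the highest and lowest by L-strand mean with 3 or more sites usable in all 8 libraries of 60 min. In COX2 a single window qualified. Named sites were the 3 highest H-strand means and the 3 largest L-strand SDs per gene among sites usable in all 8, plus sites past a site test. Like genes were the 3 with the smallest mean absolute difference over 24 libraries. Alternatives were a coverage minimum of 20 or 30, pooled calls, sites usable in all compared libraries, sites of 50% or more left out in each library by its own rates, each replicate left out, a replicate block and another site test. Replicate numbers gave correlations of deviations of -0.0695 to 0.0755 over 2902 sites, so that they were not taken to pair samples.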

Additional observations from a re-analysis of the deposited data

Results flagged for a closer look

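Gene means of native libraries of the same duration were screened with Dixon's test for a value far from the rest, in 16 groups of 4 to 7 libraries. Such a screen picks about 1 group in 20 by chance, and 3 groups were picked.

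The COX2 L-strand mean of B2_60 was 91.8%, against 12.7 to 24.6% in the other 6 native libraries of 60 min. It rests on 8 usable sites, all in the stretch of nt 121 to 180, at a median coverage of 17.5 reads. In that stretch the other native libraries averaged 63.6 to 87.5%.

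The COX2 H-strand mean of E1_15 was 11.3%, against 3.52 to 3.88% in the other 3 native libraries of 15 min. The COX3 H-strand mean of the same library was 11.2%, against 3.50 to 3.92%. The H strand outside the 2 genes averaged 10.5% in E1_15, so the higher value was not particular to COX2 and COX3. After 40 min preparation E1 was at 0.593% in COX2, where the other native preparations were at 0.429 to 0.530%, and at 0.721% in COX3, where they were at 0.436 to 0.797%.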

How the results depend on the processing

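Differences below are in percentage points, in the direction given in the report, at 60 min unless stated, and p-values are from exact permutation tests unless another test is named. Except where a test is said to pass, the values listed as lost did not pass after adjustment and the cause was not tested.

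With a coverage minimum of 20, ESC minus tissue turned to 5.53 for the COX2 L strand, and COX2 L minus the rest of mtDNA (-13.7), CpG minus CH on the COX2 H strand (0.235) and few minus many guanines in COX2 (32.5) newly passed. With a minimum of 30, ESC minus tissue for COX2 L was 8.99, the 40 to 60 min change of COX2 H was -0.000503 and CpG minus CH on COX3 H was -0.145, all turned in sign. At that minimum the calls were lost for L minus H (20.7 in COX2, 3.07 in COX3), COX2 minus COX3 (17.0) and minus COX1 (18.5) on the L strand, COX3 L minus the rest (-32.6), CpG minus CH on COX3 L (-2.67) and guanines in COX3 (6.89), and 4 single sites of the 2 genes passed Fisher's exact test. With reads pooled over sites, COX2 H minus the rest turned to 0.0838 and passed, the 40 to 60 min changes turned to -1.15 (COX2 L) and -0.0149 (COX2 H), and CpG minus CH on COX3 H turned to -0.0882. There CpG minus CH on COX2 H (0.562) and guanines in COX2 (30.7) newly passed.

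Over sites usable in all compared libraries, signs turned for native minus synthetic on COX3 L (0.113), COX3 minus COX1 on the L strand (-0.820), COX2 minus the rest on the L strand (39.2, which passed and rests on 8 sites of the high stretch) and the H strand (0.0154), the 40 to 60 min change of COX2 L (-0.487), and CpG minus CH on COX2 L (0.279) and COX3 H (-0.0395). With sites of 50% or more left out, native minus synthetic on COX2 L turned to -0.812 and COX2 minus COX3 on the L strand to -1.31. This cut removes high values in each library by their value, so different sites remain per library and smaller COX2 L-strand values follow by design. The calls were then lost for L minus H (1.52 in COX2, 2.63 in COX3), COX2 minus COX1 on the L strand (0.540), COX3 L minus the rest (-1.29), CpG minus CH on COX3 L (-1.29) and guanines in COX3 (5.99). For L minus H in COX3, CpG minus CH on COX3 L and guanines in COX3, the unadjusted p stayed at 0.00781, the smallest possible. Their adjusted p was 0.0586 (exact permutation tests). With the high COX2 stretch left out, chosen after the data were seen, the value was -0.321 for native minus synthetic. At sites shared with synthetic mtDNA, also chosen afterwards, native minus synthetic was 4.58 (COX2 L), 0.0896 (COX2 H), -0.330 (COX3 L) and 0.105 (COX3 H), without a call.

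Leaving out 1 replicate at a time gave 17.9 to 29.9 (COX2) and 2.64 to 3.02 (COX3) for L minus H, 14.8 to 27.0 for COX2 minus COX3 and 16.1 to 27.8 for COX2 minus COX1 on the L strand, 0.101 to 0.184 for COX3 minus COX1 on the H strand, -14.9 to -4.59 (COX2) and -31.6 to -29.7 (COX3) for L strand minus the rest, -1.64 to -1.35 (COX3 L) and -0.0946 to 0.115 (COX3 H) for CpG minus CH, 29.3 to 33.6 (COX2) and 6.01 to 7.13 (COX3) for guanines, -0.101 to 1.07 for ESC minus tissue on COX3 L, and -1.74 to 2.95 (COX2 L) and -0.0368 to 0.0514 (COX2 H) for the 40 to 60 min change. ESC minus tissue on COX3 L turned in sign without ESC replicate 2, at -0.101. CpG minus CH on COX3 H turned without ESC replicate 1 (-0.0946), ESC replicate 3 (-0.0324) and liver replicate 1 (-0.0256). The 40 to 60 min change turned without ESC replicate 2 for COX2 L (-1.74) and without liver replicate 1 (-0.0148) or synthetic replicate 1 (-0.0368) for COX2 H. With 7 preparations the smallest exact p is 0.0156, and the 7 calls made over 8 preparations were lost after adjustment in all but 1 of these runs. In that run, without brain replicate 2, all 7 held, and COX3 minus COX1 on the H strand (0.184), COX2 L minus the rest (-14.9) and guanines in COX2 (31.1) newly passed. Fisher's exact test called 0 to 1 site of the 2 genes and 21 to 52 sites over mtDNA, 21 without ESC replicate 1. With limma it was 0 over mtDNA, with or without brain replicate 2.

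Replicate numbers were not taken to pair the samples (correlations of deviations from -0.0695 to 0.0755). These correlations cannot show whether preparations of the same number were processed together. With the replicate number as a block, exact p-values for ESC minus tissue were 0.556 (COX2 L), 0.667 (COX2 H), 0.778 (COX3 L) and 0.556 (COX3 H), and limma called 0 sites. Without the pairing by preparation, those for 40 against 60 min were 0.786, 0.889, 0.135 and 0.397. The block changed no call. Depth limits the COX2 L strand most, where 8 to 49 of 173 native sites were usable at 60 min.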
